A study of Mus musculus with 8 samples.

Results

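The peaks described here were those with the most input signal in 4 lists of BMAL1 ChIP-seq peaks from cultured mouse mammary cells. Peaks were chosen by their input tags, and a peak was included when it held at least 30 tags in the input (control) library, a tag being a sequenced fragment placed on the genome as the peak caller counts it. This rule found 170 of 211109 peaks: 3 of 13683 in DIFF1, 131 of 185417 in DIFF2, 7 of 6534 in UNDIFF6 and 29 of 5475 in UNDIFF8. Because the peaks were chosen by these values, their number, input tags, ChIP tags and fold over input are given as a description. They are called high-input peaks below, and the 210939 peaks with fewer than 30 input tags are called the other peaks.

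The ChIP was made against BMAL1, a transcription factor of the circadian clock, in HC11 cells, a line of normal mouse mammary epithelial cells. Differentiated (DIFF) cultures were grown to confluence in medium with 10% calf serum, insulin and epidermal growth factor, kept for 48 h with no such factor but with insulin at 5 µg/mL, and then held for 96 h in medium that also carried the lactogenic hormones dexamethasone (0.1 µM) and prolactin (5 µg/mL), with insulin still at 5 µg/mL. Undifferentiated (UNDIFF) cultures had the same growth and were collected at the end of the 48 h, with no dexamethasone or prolactin. All cultures were crosslinked with 1% formaldehyde, and each state was represented by a pair of cultures of the same line, each with its own ChIP and input library. ChIP and input tags of a list were on a common scale, of 57.5 M tags in DIFF1, 35.3 M tags in DIFF2, 80.3 M tags in UNDIFF6 and 77.1 M tags in UNDIFF8. This scale is the total of the input library in DIFF1 and UNDIFF6 and of the ChIP library in DIFF2 and UNDIFF8. DIFF2 stood apart with 185417 peaks, which were also the widest, with a median of 336 bases, against 214, 194 and 228 bases in DIFF1, UNDIFF6 and UNDIFF8. In these lists the centres of the other peaks lay in a soft-masked base, meaning a base that the genome assembly marks as part of an interspersed or simple repeat, in 86% of cases in DIFF2 and 21.4 to 26.6% in the remaining lists. The lists hold DNA positions and no expression, so that the mammary identity of the cells could not be checked on marker genes. The study's methods state that the cultures were collected in separate replicate experiments, and the labels give no further detail. The p-values measure only the spread between these lists, all from the same cell line.

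BMAL1 pairs with CLOCK and binds the E-box sequence CACGTG near genes such as those of the PER and CRY repressors. Input is sheared chromatin that was not taken through the antibody step, and a peak caller uses it as the local background against which ChIP tags are judged. In mammalian genomes, sequences that exist in many more copies than the assembly holds collect reads from all their copies at the few places that the assembly does hold. Among the most abundant of these in the mouse is the major (gamma) satellite, a tandem repeat of the pericentromeric heterochromatin next to the centromeres. The minor satellite lies at the centromere itself and carries the CENP-B box, the binding site of the centromere protein CENP-B. B1 elements are short interspersed repeats derived from the 7SL RNA gene, and LINE-1 elements are long interspersed repeats that spread by reverse transcription.

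Sequences are given from the GRCm38 assembly for 3 kinds of repeat found in the high-input peaks, to show the DNA under them. The first is 1 repeat length of the peak with the most input tags of any list, at chr2:98666599-98666832 on the plus strand. The second is the window around the CENP-B box in the peak with the highest fold over input, at chr6:103649105-103649239, read on the minus strand with the 15 letters of the box in capitals. The third is a plus-strand stretch, at chr5:15044768-15045067, of the high-input peak that matched most others in the second largest sequence family, whose letters are recognisable as LINE-1. The largest sequence family was called B1 from the letters of the peak that matched most others in it. A peak joined a family by matching any 1 of its peaks. Of the 58 peaks of this largest family, 4 matched the 7SL RNA gene Rn7s1 over at least 60 bases at 80% identity or more. In DIFF2, 3.05% of the high-input peaks matched that gene, beside 2.61% of the other peaks.
Satellite repeat length: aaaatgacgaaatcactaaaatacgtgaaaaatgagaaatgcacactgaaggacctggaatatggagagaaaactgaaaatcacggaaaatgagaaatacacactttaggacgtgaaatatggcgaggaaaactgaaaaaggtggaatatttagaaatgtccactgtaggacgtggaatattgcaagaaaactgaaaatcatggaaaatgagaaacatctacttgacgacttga
CENP-B box window: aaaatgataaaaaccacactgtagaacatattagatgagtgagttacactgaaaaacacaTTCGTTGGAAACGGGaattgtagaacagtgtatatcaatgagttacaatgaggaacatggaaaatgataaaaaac
LINE-1 stretch: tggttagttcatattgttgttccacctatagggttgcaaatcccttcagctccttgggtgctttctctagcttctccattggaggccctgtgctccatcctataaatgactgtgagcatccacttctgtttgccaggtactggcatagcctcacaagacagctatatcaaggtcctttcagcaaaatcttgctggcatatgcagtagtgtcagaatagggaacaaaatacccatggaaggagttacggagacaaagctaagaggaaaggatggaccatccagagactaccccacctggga

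High-input peaks were rare in every list, and a few of them held a large part of the tags of DIFF2. They made up 0.0219% of the peaks of DIFF1 (95% Wilson interval 0.00746 to 0.0644%), 0.0707% of DIFF2 (0.0595 to 0.0838%), 0.107% of UNDIFF6 (0.0519 to 0.221%) and 0.530% of UNDIFF8 (0.369 to 0.760%), where intervals cover counting error only. The share averaged 0.0463 ± 0.0345% in DIFF and 0.318 ± 0.299% in UNDIFF lists (SD, n = 2 each). The difference of -0.272 percentage points is a description, since the rule on input tags sets this share. With a minimum of 50 input tags, or of 5 times the mean expected, the difference was -0.0710 or -0.103 points and the shares of DIFF and UNDIFF lists overlapped. Over a peak of median width, an even spread of tags would give 4.65, 4.48, 5.89 and 6.64 input tags in DIFF1, DIFF2, UNDIFF6 and UNDIFF8. The lowest, median and highest input of the high-input peaks was 32.5, 34.0 and 49.5 tags in DIFF1. In DIFF2 these values were 30, 35.6 and 126849 tags. They were 34.5, 41.0 and 640.5 tags in UNDIFF6 and 30, 34.8 and 570.2 tags in UNDIFF8. The medians lay within a few tags of each other, and the DIFF2 list stood apart by its upper end, with 27 peaks of at least 100 input tags against 0, 1 and 4 in DIFF1, UNDIFF6 and UNDIFF8. In DIFF2 the high-input peaks held 17.0% of all input tags in peaks and 22.3% of all ChIP tags in peaks, and 1 of them held 11% of the input tags. The corresponding input shares were 0.214% in DIFF1, 1.94% in UNDIFF6 and 5.57% in UNDIFF8.

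**Figure D1:**
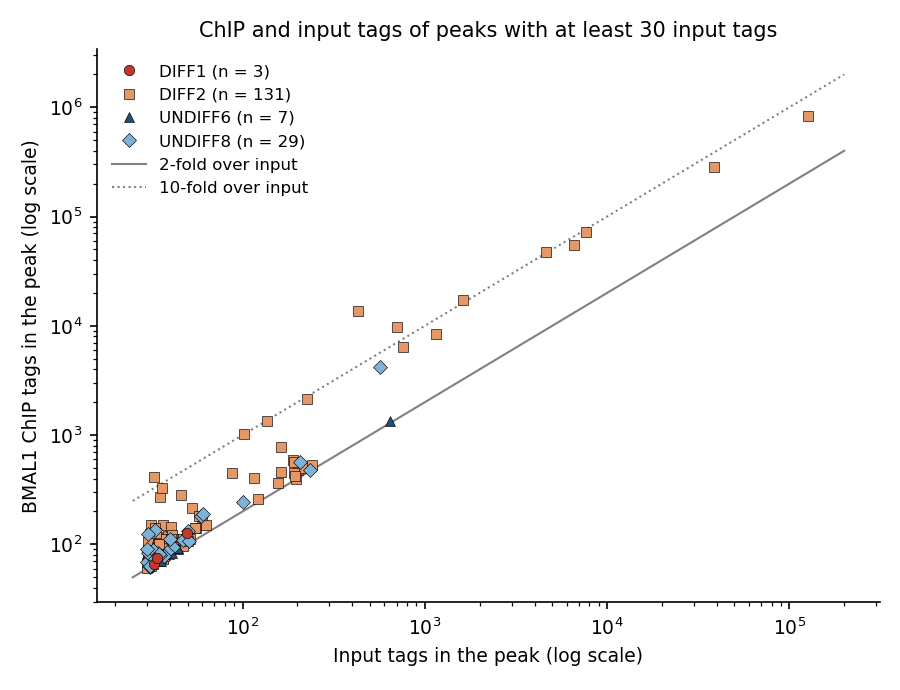
Input tags (x axis, log scale) and ChIP tags (y axis, log scale) of each of the 170 high-input peaks, 1 point per peak, coloured by list; the tags of a list share 1 scale. The DIFF2 points reach 126849 input tags, and most points of every list lie below 50 input tags, above the line at which ChIP tags are 2 times the input tags.

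The fold of ChIP over input was low in most of these peaks, which is in part how they were drawn, since input is the divisor of the fold. Peaks had been kept where ChIP tags were at least 2-fold the input tags. The median fold was 2.22 in high-input peaks and 4.31 in the other peaks of DIFF1, 2.51 and 5.15 in DIFF2, 2.06 and 3.41 in UNDIFF6, and 2.36 and 4.2 in UNDIFF8. The peaks just inside and just outside the minimum had folds of similar size. In DIFF2 the peak with 30 input tags near Csnk1d, the gene of a casein kinase that phosphorylates PER proteins, had a 2.27-fold enrichment, and the peak with 29.8 input tags near Gm30158 had 2.82-fold. In UNDIFF8 the corresponding peaks had 30 tags and 3.02-fold near Btbd35f26, and 29.5 tags and 2.29-fold near Eif4a3l1. DIFF1 and UNDIFF6 had wider steps, at 32.5 against 26.5 tags and at 34.5 against 26.5 tags.

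The highest inputs of all belonged to satellite DNA, and their ChIP tags were higher still. A sequence family of 17 high-input peaks, 15 from DIFF2 and 2 from UNDIFF8, matched the peak whose repeat length is printed above. They stood in 6 position clusters on chromosomes 2, 9, 11, 12 and 14. In DIFF2, 15 of 131 high-input peaks (11.5%) matched this sequence over at least 60 bases at 80% identity or more, beside 0.0081% of the other peaks. In UNDIFF8 2 of 29 (6.90%) matched, beside 0.0184%. No high-input peak of DIFF1 or UNDIFF6 matched, and the other peaks of these lists matched in 0% and 0% of cases. The match was thus found in 2 of the 4 lists, 1 of each state.

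The top peak of DIFF2 lay between genes on chromosome 2, with Lrrc4c, the gene of a synaptic adhesion protein, as its nearest start site, and held 126849 input and 838503 ChIP tags, or 6.61-fold. The next lay on chr9:35305253-35305589 near 4933422A05Rik with 38590.5 input and 283086 ChIP tags, or 7.34-fold. The third was 1 of 3 neighbours on chromosome 14 near Gm2237, between 19415704 and 19418998, whose inputs were 7627.4, 1611.6 and 1149.3 tags with 9.43-fold, 10.78-fold and 7.32-fold. Single peaks on chr12:3109842-3110178 near Rab10os and on chr11:3101682-3102018 near Pisd-ps1 held 4652.8 and 35.2 input tags with 10.16-fold and 7.66-fold. All of these folds were above the DIFF2 median of 5.15 for the other peaks.

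The largest satellite cluster lay at the start of the assembled chromosome 9, at chr9:3000378-3025970, 377 bases from an assembly gap and nearest to Mir101c. Here DIFF2 had 8 high-input peaks with inputs of 6550.9, 705.3, 136.4, 32.7, 36.2, 101.8, 759.7 and 226.6 tags along the chromosome, at 8.39- to 13.90-fold. UNDIFF8 had 2, with 50.7 and 235.3 input tags at 2.14-fold and 2.02-fold, and DIFF1 and UNDIFF6 had no peak within 10 kb. The 2 UNDIFF8 peaks each overlapped a DIFF2 peak, with tags counted on each list's own scale. At the first, DIFF2 held 32.7 input and 418.0 ChIP tags, and UNDIFF8 held 50.7 input and 108.5 ChIP tags. At the second, DIFF2 held 226.6 input and 2131.5 ChIP tags, and UNDIFF8 held 235.3 input and 476.5 ChIP tags. Sequence around the first peak of this cluster was most alike to itself at a shift of 234 bases, with 73.5% identity over 2000 bases, against 54.6% around the Gm2237 peaks and 39.1% around the Lrrc4c peak. Around the 4933422A05Rik peak the best shift was 58 bases, at 31.7%.

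The site with the highest fold among the high-input peaks carried a CENP-B box and lay inside a gene, far from any assembly gap. It lay at chr6:103649013-103649349 in an intron of Chl1, which encodes a neural cell adhesion molecule of the L1 family, 36013562 bases from the nearest assembly gap. DIFF2 held 432.5 input and 13731 ChIP tags there, or 31.75-fold. UNDIFF8 held 570.2 input and 4237 ChIP tags, or 7.43-fold, which was also the highest fold of the high-input peaks of that list. DIFF1 and UNDIFF6 had no peak within 10 kb. The CENP-B box, searched on both strands as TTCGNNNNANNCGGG, stood in these 2 peaks of 170, and in 6 of the 210939 other peaks. The median 50-base word of these peaks stood at 1 place of the assembly, while 23.6% of the words in DIFF2 and 35.6% in UNDIFF8 stood at 2 or more, and the centre was not soft-masked.

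A further 2 sites were shared by the same lists, DIFF2 and UNDIFF8, with no peak of DIFF1 or UNDIFF6 within 10 kb. In an intron of Fbxw4, the gene of an F-box protein, at chr19:45649983-45650319, DIFF2 held 115.1 input and 406.0 ChIP tags at 3.53-fold, and UNDIFF8 held 206.8 input and 566.0 ChIP tags at 2.74-fold. At chr2:3050118-3050454, 117 bases from an assembly gap and nearest to Fam171a1, DIFF2 held 52.8 input and 215.5 ChIP tags at 4.08-fold, and UNDIFF8 held 100.0 input and 245.0 ChIP tags at 2.45-fold. Tags were again counted on each list's own scale.

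Joined where at most 10 kb lay between them, the 170 peaks formed 104 clusters, of which 77 held a single peak, and 27 held 2 or more peaks and 93 of the peaks together. How closely the other peaks stood to each other was not compared. Peaks of 2 or more lists stood in 14 clusters, and each of these 14 held both states. Of the rest, 75 were found in DIFF2 alone, 12 in UNDIFF8 alone, 2 in UNDIFF6 alone and 1 in DIFF1 alone. A single cluster held all 4 lists.

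That cluster was at chr1:85244400-85264096 in introns of C130026I21Rik, a member of the Sp100 and Sp110 family, whose human counterparts are interferon-induced proteins of nuclear bodies and which stands in a tandem array of copies in the mouse. DIFF1 held 1 high-input peak with 32.5 input tags, DIFF2 held 2 with 31 and 30.4, UNDIFF6 held 1 with 44.5 and UNDIFF8 held 1 with 41.6. Folds were between 2.02 and 2.93, and the DIFF1, UNDIFF6 and UNDIFF8 peaks overlapped each other. DIFF2 had 3 more high-input peaks at higher coordinates, at chr1:85278122-85292322, with 55.9, 34.1 and 47.4 input tags. Genes of this family were nearest to 9 of the 170 high-input peaks (5.29%), beside 0.0114% of the other peaks.

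The cluster of chr13:119601391-119615151, nearest to Ccl28, the gene of a chemokine of mucosal and mammary epithelium that draws antibody-secreting cells, held 3 lists. DIFF1 had 1 high-input peak with 34.0 input tags, UNDIFF6 had 2 with 44.5 and 37.0, and UNDIFF8 had 1 with 31.4, all at 2.06- to 2.55-fold. The peaks did not overlap each other. DIFF2 had 2 peaks within 10 kb, the higher at 17.8 input tags, so that none reached the minimum there. This cluster began 5885 bases from an assembly gap.

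Of the clusters named, 2 lay on chromosome 8 and 1 on chromosome 5, each with DIFF2 and UNDIFF8 peaks. Near 2610005L07Rik at chr8:20514496-20534236, DIFF2 held 33.5, 63.1, 40.4 and 30.6 input tags and UNDIFF8 held 50.3 and 32.4. Near 4930467E23Rik at chr8:19909010-19911103, DIFF2 held 121.9, 40.6 and 33.1 input tags and UNDIFF8 held 40.1. Near Speer4d, of a family of testis genes for glutamate-rich proteins, at chr5:15598151-15604800, DIFF2 held 31.5 and 34.1 input tags and UNDIFF8 held 35.3 and 30.4. Every one of these 14 peaks consisted for the most part of 50-base words that the assembly holds at 2 or more places. A further cluster was different in this respect. At chr12:115615272-115620696, inside the Igh locus of immunoglobulin heavy chain genes and nearest to Mir6388, DIFF2 held 36.4 and 30.4 input tags and UNDIFF8 held 32.9, 33.8 and 38.7, and none of the 5 peaks consisted for the most part of repeated words.

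**Figure D2:**
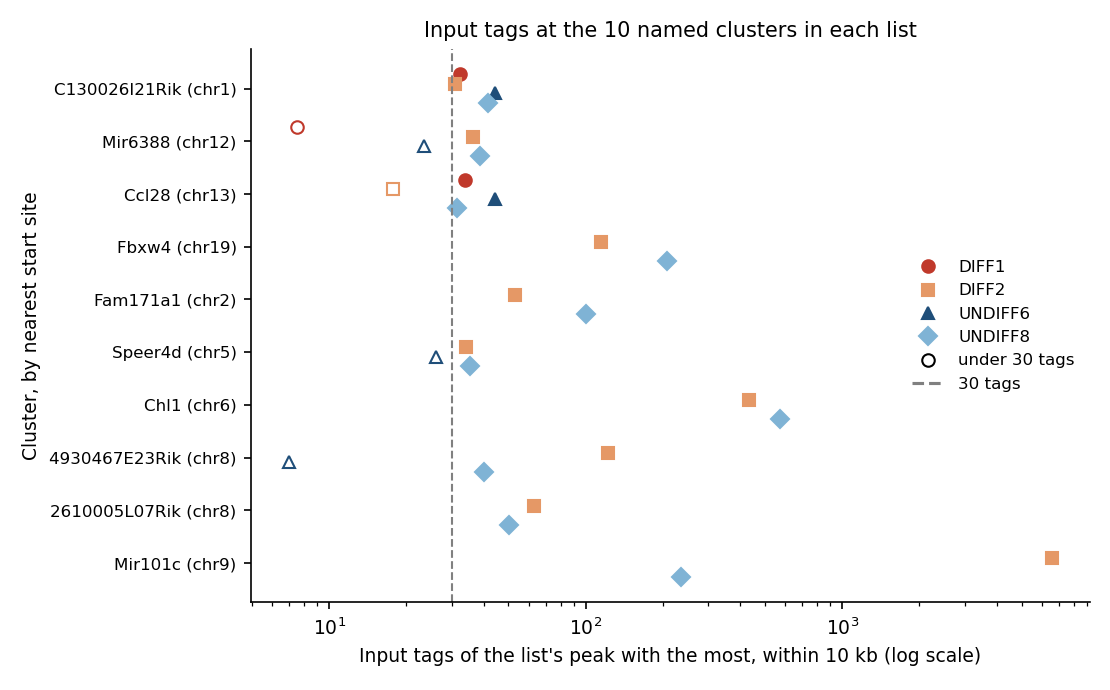
Input tags (x axis, log scale) of each list's peak with the most input tags within 10 kb of the 10 named clusters (rows, by nearest gene), coloured by list. Lower peaks of a list are not drawn. Filled points are high-input peaks and open points are peaks with fewer than 30 input tags. Only the C130026I21Rik row has filled points of all 4 lists, and the Chl1, Fbxw4 and Fam171a1 rows hold DIFF2 and UNDIFF8 points alone.

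Lists of genes were counted among the genes nearest to high-input peaks. Members of the Speer family were nearest to 5 high-input peaks (2.94%, beside 0.0654% of the other peaks), the Btbd35 family to 2 (1.18%, beside 0.112%) and zinc finger protein genes to 5 (2.94%, beside 0.971%). No high-input peak was nearest to a core clock gene, a clock output gene, a milk protein gene, a major urinary protein gene, a vomeronasal or olfactory receptor gene, an X- or Y-linked multi-copy testis gene, a Schlafen gene, a killer cell lectin-like receptor gene, an eosinophil ribonuclease gene, a Pramel or Oog gene or a ribosomal RNA gene. Of the other peaks, 0.0659% were nearest to a core clock gene, 0.0185% to a clock output gene, 0.0275% to a milk protein gene, 0.0626% to a major urinary protein gene, 0.837% to a vomeronasal receptor gene and 1.15% to an olfactory receptor gene. The remaining lists with no high-input peak were nearest to between 0.00237% and 0.114% of the other peaks. At shares of this size, a count of 0 among 170 peaks is not read as a difference.

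The cluster with the most peaks was found in DIFF2 alone. It held 11 high-input peaks at chr11:3138570-3195461, all in introns of Sfi1, which encodes a centrosomal protein that binds centrin. Their inputs were between 87.7 and 218.5 tags, their ChIP tags between 366.0 and 592.0, and their folds between 2.01 and 5.17. All 11 had a soft-masked centre and belonged to the B1 family, and 7 consisted for the most part of repeated words. They were spread along 56891 bases, and 10 of the 11 had at least 156.0 input tags. Outside this cluster, the satellites and Chl1, an input above 100 tags was found in DIFF2 near P4ha2 (240.9 tags), Ly6c2 (162.7 tags), 4930467E23Rik (121.9 tags) and Fbxw4 (115.1 tags). Other lists had their own single sites. The highest input of UNDIFF6 was in mitochondrial DNA, at chrMT:3243-3437 in the gene of the respiratory chain subunit ND1, with 640.5 input and 1354 ChIP tags at 2.11-fold, and no other list had a peak in mitochondrial DNA. The highest input of DIFF1 was at chr17:3077805-3078019 in an intron near Pisd-ps2, with 49.5 input and 127.6 ChIP tags at 2.58-fold.

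A group of DIFF2 peaks differed from those above in that nearly all had a single place in the assembly. From chr11:109877865 to the end of that chromosome, over 12.2 Mb, DIFF2 had 50 high-input peaks in 38 clusters, which were 38.2% of its high-input peaks, while 0.756% of all DIFF2 peaks lay there. DIFF1, UNDIFF6 and UNDIFF8 had none in this stretch. The nearest start sites of the 50 peaks were those of 35 genes. Of these peaks, 4 were nearest to Sectm1a, 3 to Fasn, 3 to Ccdc57, and 2 each to Aspscr1 and Rbfox3 among others. The inputs of the 50 peaks were narrow in range, from 30 to 51.3 tags with a median of 32.9. So were their folds, from 2.02 to 3.84 with a median of 2.32. Fasn encodes the fatty acid synthase that mammary cells use for milk fat. The 3 peaks nearest to it lay in introns of another gene, Ccdc57, at -8659, -12554 and -42592 bases from the Fasn start site. They held 35.2, 30.6 and 38.1 input tags and 93, 81.5 and 95 ChIP tags. Repeated words made up most of 1 of these 50 peaks, against 46 of the 81 DIFF2 high-input peaks elsewhere (56.8%), and none of the 50 overlapped a peak of another list, against 12 of 81 (14.8%). None lay within 100 kb of an assembly gap, against 48 of 81 (59.3%). Of the 50 peaks, 47 had a soft-masked centre and 32 belonged to the B1 family.

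Since the stretch was found by its high-input peaks, the input of the other peaks there was compared with the rest of the genome, leaving out the last 16.8 Mb of chromosome 5 given below. In units of the tags expected from an even spread, the median input of the other peaks in the stretch was 1.29 in DIFF1, 2.46 in DIFF2, 2.25 in UNDIFF6 and 1.60 in UNDIFF8. In the rest of the genome it was 0.861 in DIFF1, 1.03 in DIFF2, 1.1 in UNDIFF6 and 0.948 in UNDIFF8. The stretch was thus higher in 4 of 4 lists, by a mean of 0.914 ± 0.456 (SD over lists). In the 3 lists that had not been used to find the stretch, DIFF1, UNDIFF6 and UNDIFF8, the mean difference was 0.741 ± 0.367 (SD), given as a description, since input tags are the measure that chose the peaks. Other peaks were also denser in the stretch, at 14.8, 110.7, 7.05 and 6.23 per Mb in DIFF1, DIFF2, UNDIFF6 and UNDIFF8, against 5.04, 69.5, 2.42 and 2.02 per Mb in the rest of the genome. This held for peaks as deposited, and with a fold over input of at least 4 the DIFF2 density was 42.4 per Mb in the stretch and 47.6 per Mb in the rest of the genome. Within the stretch the UNDIFF peaks were densest at its start. In 2-Mb bins at -11 and -9 Mb from the Fasn start site, UNDIFF6 had 29 and 33 peaks and UNDIFF8 had 23 and 48. At -5 Mb UNDIFF6 had 6, UNDIFF8 had 1 and DIFF1 had 21. At -1 Mb UNDIFF6 had 3 and DIFF1 had 36. The median input of DIFF1 was 0.969, 0.753 and 0.861 in the bins at -7, -5 and -3 Mb, and above 1 in its remaining bins there. The last 16.8 Mb of chromosome 5, chosen after its values were seen, had inputs of 1.18, 2.26, 1.70 and 1.31 times the expected tags in DIFF1, DIFF2, UNDIFF6 and UNDIFF8.

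**Figure D3:**
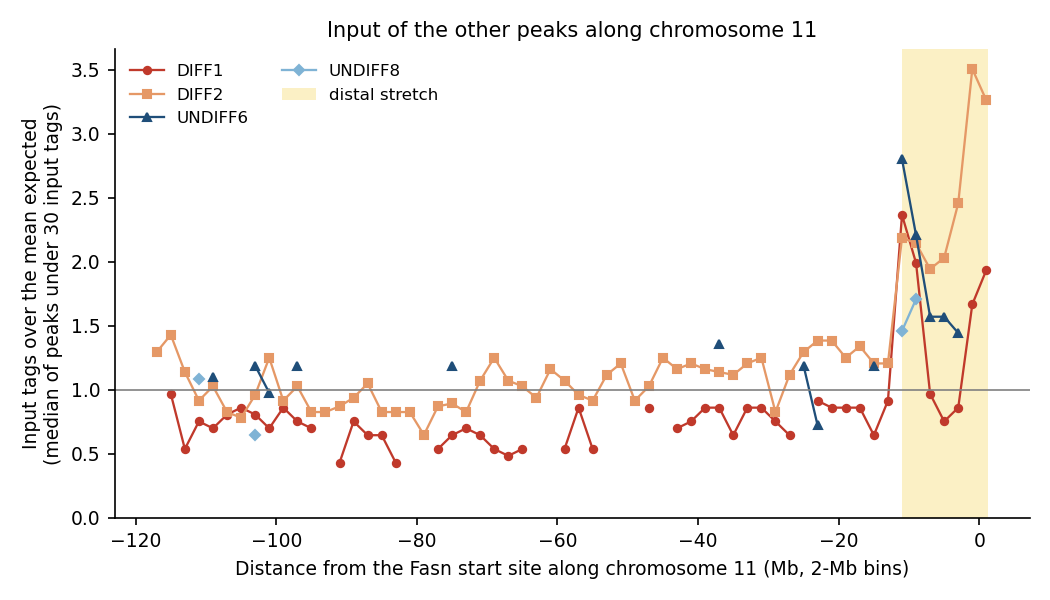
Median input of the other peaks in 2-Mb bins along chromosome 11, in multiples of the tags expected from an even spread (y axis), against distance from the Fasn start site in Mb (x axis), 1 line per list; bins with fewer than 5 peaks are not drawn, and the shaded stretch is the 12.2 Mb described in the text. All 4 lists lie above 1 at the start of the shaded stretch, while most DIFF1 bins before it lie below 1. Inside the stretch DIFF1 lies below 1 again at -7, -5 and -3 Mb, at 0.969, 0.753 and 0.861.

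Compared with the other peaks of the same list, high-input peaks more often lay in repeated sequence, near assembly gaps and on a peak of another list, in each of the 4 lists. These features were not used to choose the peaks. Each was compared within a list and then over the 4 lists by a two-sided exact sign-flip permutation test, which gives a p of 0.13 at the smallest and so could not pass a threshold of 0.05, and 22 features were compared in all. A high-input peak had a soft-masked centre in 2 of 3 cases in DIFF1 (66.7%, beside 26.6% of the other peaks), 119 of 131 in DIFF2 (90.8%, beside 86%), 2 of 7 in UNDIFF6 (28.6%, beside 21.4%) and 12 of 29 in UNDIFF8 (41.4%, beside 26.2%). The difference was positive in 4 of 4 lists, with a mean of 16.8 ± 16.1 percentage points (SD over lists, exact p = 0.13, Benjamini-Hochberg adjusted p = 0.275). In each of the 4 lists the share of the other peaks lay within the 95% Wilson interval of the high-input peaks.

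Words repeated inside the assembly were also more common in high-input peaks. At least 50% of the 50-base words of a peak stood at 2 or more places of the assembly in 2 of 3 high-input peaks of DIFF1 (66.7%, beside 4.25% of the other peaks), 47 of 131 in DIFF2 (35.9%, beside 14.6%), 3 of 7 in UNDIFF6 (42.9%, beside 2.25%) and 12 of 29 in UNDIFF8 (41.4%, beside 6.21%). The mean difference was 39.9 ± 17.1 percentage points, positive in 4 of 4 lists (exact p = 0.13, adjusted p = 0.275). For words at 10 or more places this did not hold in every list, as the share was 0% in high-input peaks and 1.59% in the other peaks of DIFF1, and 7.63% and 6.92% in DIFF2, with a mean difference of 8.18 points over the 4 lists (exact p = 0.375). A read that lies within such a word matches each of its places equally well. The reads were paired and at least 50 bases long, and how they were placed was not measured. Assembly gaps were also closer to high-input peaks. Within 100 kb of a gap lay 3 of 3 high-input peaks of DIFF1 (100%, beside 1.29%), 48 of 131 in DIFF2 (36.6%, beside 1.09%), 5 of 7 in UNDIFF6 (71.4%, beside 1.58%) and 14 of 29 in UNDIFF8 (48.3%, beside 4.54%). The mean difference was 62.0 ± 28.5 percentage points, positive in 4 of 4 lists (exact p = 0.13, adjusted p = 0.275). Unlike soft-masked centres, repeated words and overlap, the comparison of gaps was added after the data were seen.

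**Figure D4:**
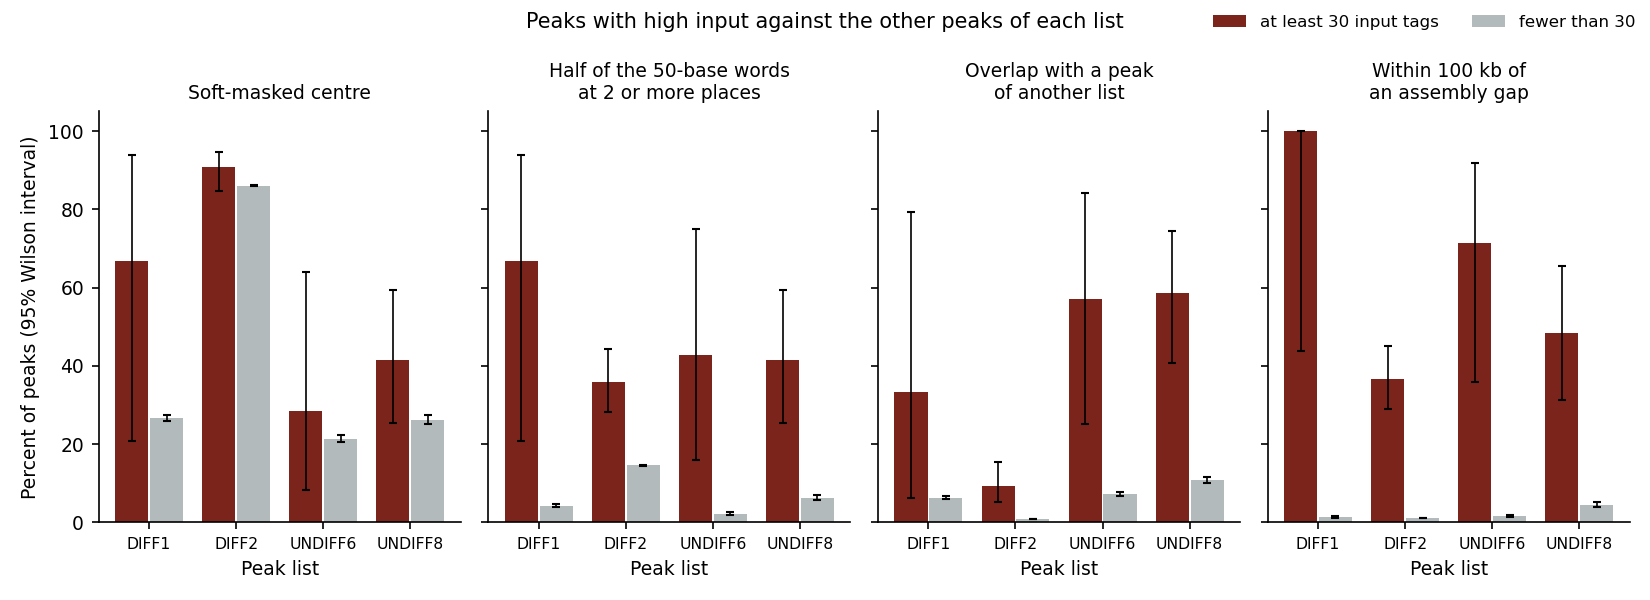
Percent of high-input peaks (dark bars) and of the other peaks (grey bars) in each list with a soft-masked centre, with at least 50% of their 50-base words at 2 or more places of the assembly, overlapping a peak of another list, and within 100 kb of an assembly gap; error bars are 95% Wilson intervals, which cover counting error only. The dark bar is the higher in every pair, and in the soft-masked panel DIFF2 has the bars closest together, at 90.8% and 86%.

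The kinds of repeat differed between lists. Matches to the best linked peak of the B1 family were found in 49 of 131 high-input peaks of DIFF2 (37.4%, beside 19.4% of the other peaks) and in none of the high-input peaks of DIFF1, UNDIFF6 and UNDIFF8, beside 0.512%, 0.276% and 0.294% of the other peaks of these lists. Of the 58 peaks of the B1 family, each joined through any peak of it, 57 were DIFF2 peaks and 1 was the UNDIFF6 peak of Fbxl18. That UNDIFF6 peak and some of the DIFF2 peaks did not match the best linked peak itself. Matches to the peak that carries the LINE-1 stretch were found in 12 of 131 in DIFF2 (9.16%, beside 15.2%) and in none of the other lists' high-input peaks, beside 2.04%, 0.613% and 1.54% in DIFF1, UNDIFF6 and UNDIFF8. Of the 23 peaks of the LINE-1 family, each joined through any peak of it, 20 were DIFF2 peaks and 3 were UNDIFF8 peaks. The sequences matched here, and the satellite above, were taken from the high-input peaks themselves, so that these counts are given as a description. A short tandem run, meaning at least 24 bases of a unit of up to 6 bases, was present in 0 of 3, 26 of 131, 0 of 7 and 1 of 29 high-input peaks of DIFF1, DIFF2, UNDIFF6 and UNDIFF8, beside 1.79%, 31.7%, 2.16% and 2.83%, with a mean difference of -3.79 ± 5.51 points (exact p = 0.25).

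The E-box CACGTG, searched in the whole peak, was present in 0 of 3 high-input peaks of DIFF1, 4 of 131 in DIFF2, 0 of 7 in UNDIFF6 and 2 of 29 in UNDIFF8, beside 2.01%, 2.65%, 2.13% and 1.43% of the other peaks. The mean difference was 0.431 ± 3.55 percentage points, negative in 2 lists and positive in 2 (exact p = 0.875), so that no difference larger than the spread between lists was found. The 6 peaks with the letters were near Sfi1, Kcnj16, Rbfox3 and 2610005L07Rik in DIFF2 and near 2610005L07Rik and Btbd35f6 in UNDIFF8. Introns held 3 of 3 high-input peaks in DIFF1, 57 of 131 in DIFF2, 2 of 7 in UNDIFF6 and 7 of 29 in UNDIFF8, beside 37.6%, 35.7%, 37.2% and 32.3% of the other peaks, with a mean difference of 13.3 ± 33.6 points (exact p = 0.875). Within 10 kb of a start site lay 66.7%, 31.3%, 71.4% and 17.2% of the high-input peaks of DIFF1, DIFF2, UNDIFF6 and UNDIFF8. The shares of the other peaks were 15.9%, 16.4%, 14.8% and 12.4%. The mean difference was 31.8 ± 25.7 points, positive in 4 of 4 lists (exact p = 0.13, adjusted p = 0.275). Of the 170 high-input peaks, 64 lay on chromosome 11, 23 on chromosome 8 and 20 on chromosome 1, and 0 on chromosomes 3, 7 and 18. In DIFF2, chromosomes 11, 8 and 1 held 64, 17 and 14 of the 131 high-input peaks, or 48.9%, 13.0% and 10.7%. They held 4.85%, 6.25% and 9.71% of all 185417 peaks, so that chromosome 1 was near its share. Chromosomes 3, 7 and 18 held 6.99%, 3.87% and 2.32% of all DIFF2 peaks.

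High-input peaks were found again in another list more often than the other peaks were. At least 1 base overlapped a peak of another list in 1 of 3 in DIFF1 (33.3%, beside 6.28%), 12 of 131 in DIFF2 (9.16%, beside 0.853%), 4 of 7 in UNDIFF6 (57.1%, beside 7.22%) and 17 of 29 in UNDIFF8 (58.6%, beside 10.8%). The mean difference was 33.3 ± 19.6 percentage points, positive in 4 of 4 lists (exact p = 0.13, adjusted p = 0.275). The lists share these pairs, so that the 4 values were not independent. With DIFF2 left out as a partner, the mean difference was 17.1 points, positive in 4 of 4 lists. In all, 34 high-input peaks overlapped a peak of another list, and 23 of them overlapped another high-input peak, in 13 pairs. None overlapped peaks of all 3 other lists. A DIFF2 peak was overlapped by 16 high-input peaks of UNDIFF8, and an UNDIFF8 peak by 10 of DIFF2, against 1 UNDIFF8 peak that overlapped UNDIFF6. DIFF2 also held by far the most and the widest peaks, and the pairs of lists were not tested against each other. The 12 overlapped peaks that were themselves under the minimum had inputs from 10.5 tags upwards with a median of 21.1, against an input median between 4 and 7 tags for the other peaks of the lists. Among the pairs were the peaks of Fbxl18, at chr5:142890270-142890606 in DIFF2 with 31 input tags and at chr5:142890333-142890527 in UNDIFF6 with 41.0 input tags.

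The clonal fold is a value of the peak caller on how far the distinct tag positions of a peak fall under the number expected, and the sources used here do not define it further. Its median was lower in high-input peaks than in the other peaks of each list. Peaks above a clonal fold of 2 had been removed when the lists were made, and 0 high-input peaks exceeded it. The median was 0.91 in high-input peaks and 1.05 in the other peaks of DIFF1, 1.12 and 1.24 in DIFF2, 0.87 and 0.97 in UNDIFF6, and 0.87 and 0.95 in UNDIFF8. The mean difference was -0.11 ± 0.0258 (SD over lists), negative in 4 of 4 lists. The value rests on the ChIP tags of a peak and is given as a description. Spearman's rho between ChIP tags and clonal fold over all peaks of a list differed in sign between lists, at -0.0342 in DIFF1, 0.332 in DIFF2, -0.151 in UNDIFF6 and -0.210 in UNDIFF8. It was -0.590 between input tags and clonal fold over the 131 high-input peaks of DIFF2, which share 1 library. The lowest values were those of the satellites, at 0.01 for the chromosome 2 peak, 0.05 for 4933422A05Rik and 0.11 for the first peak near Mir101c. A clonal fold under 0.5 was found in 10 high-input peaks of DIFF2 and in the mitochondrial peak of UNDIFF6 (0.29), and in 0 of the other peaks of any list. The satellite peak of chromosome 11 with 35.2 input tags was at 0.95, and the 50 distal chromosome 11 peaks were between 1.01 and 1.35.

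**Figure D5:**
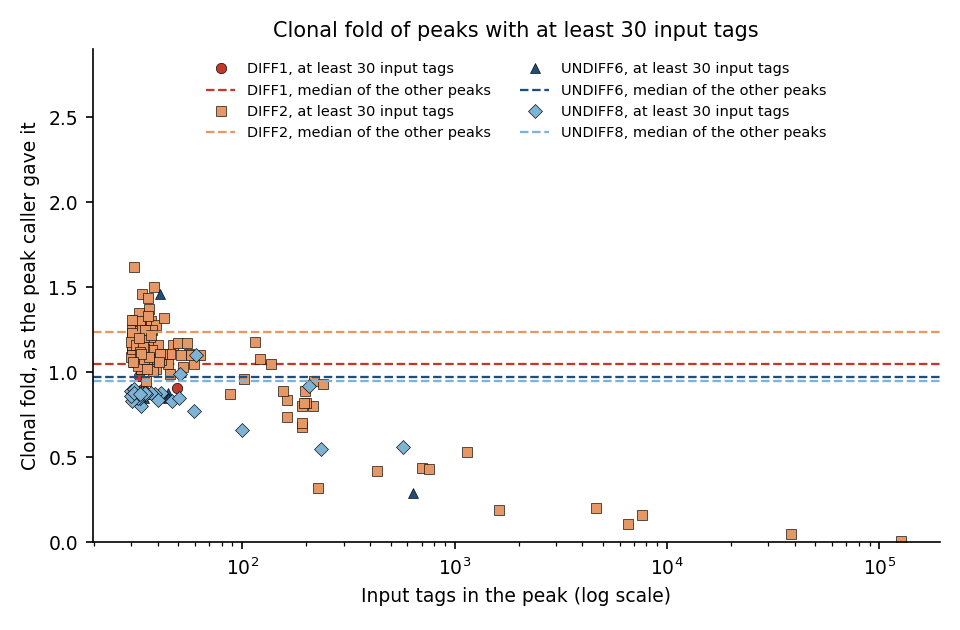
Clonal fold (y axis) against input tags (x axis, log scale) of the 170 high-input peaks, 1 point per peak, coloured by list; dashed lines are the medians of the other peaks of each list, between 0.95 in UNDIFF8 and 1.24 in DIFF2. Points below 0.5 lie at inputs of more than 200 tags and end at 0.01 for the DIFF2 peak with 126849 input tags.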

How the data were processed

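Per the labels and the study's methods, the authors trimmed paired reads, kept those of at least 50 bases, and aligned them to GRCm38 with Bowtie2 2.2.9 after FastQC 0.11.7, tool versions being those of the submitters' processing notes. Each ChIP was called against its own input with HOMER 4.10, with at least 2 times the tags of the input and of the local window, a clonal fold limit of 2 and a false discovery rate under 0.01, with no pooling of samples. According to the study's methods, 1 DIFF pair, not named there, was sequenced far more deeply, and 1 part of its split reads was used. The paper gives a far smaller number of peaks for its DIFF samples than the 185417 of the deposited DIFF2 list. Deposited values in the lists are tag signal (coverage of a peak in tags), fold ratios, p-values, a peak score and a focus fraction. In DIFF1 and UNDIFF6 the deposited ChIP signal is scaled to the input, and in DIFF2 and UNDIFF8 the input signal is scaled to the ChIP, so that tags of single peaks were compared within a list, and those of different lists set side by side are on each list's own scale. The input samples have no peak lists of their own and entered only through the control column.

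Repeats, repeated 50-base words and assembly gaps were read from GRCm38, genes from 45756 curated RefSeq transcripts of the same build, and sequence families with blastn 2.17.0 (at least 100 bases, 80% identity, low-complexity letters masked). Scripts ran in Python 3.11.15 with scipy 1.17.1, pandas 2.3.3, numpy 2.4.6 and matplotlib 3.10.9 and were tested on simulated data. The scale common to ChIP and input was between 35.3 and 80.3 M tags in a list, and Wilson intervals cover counting error only. The list, not the peak, was the unit of each exact test. Named places were the clusters with 3 or more lists, then those with 2 lists by number of peaks and summed input up to 10, and the 3 peaks with the most input in each list. Places outside this rule (distal chromosome 11, Sfi1, chromosome 5, Fbxl18, P4ha2, Ly6c2, Rab10os, Pisd-ps1, the lower Gm2237 peaks, the C130026I21Rik cluster of DIFF2 alone and the genes with an E-box) were picked once their values were known. High-input peaks, gene lists and tests were chosen with earlier results of these data known.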

Additional observations from a re-analysis of the deposited data

Results flagged for a closer look

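The share of peaks in introns moved in opposite directions in the 2 states, 1 of 22 features compared to do so. High-input peaks lay in introns more often than the other peaks of the same list in both DIFF lists, at 100% against 37.6% in DIFF1 and 43.5% against 35.7% in DIFF2. They did so less often in both UNDIFF lists, at 28.6% against 37.2% in UNDIFF6 and 24.1% against 32.3% in UNDIFF8. The mean difference was 43.5 percentage points higher in DIFF than in UNDIFF lists. This difference between the states was not tested, and DIFF1 and UNDIFF6 rest on 3 and 7 high-input peaks. Of the 57 high-input peaks of DIFF2 in introns, 11 were neighbours in the Sfi1 cluster.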

How the results depend on the processing

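Of 80 alternative values, 73 kept their direction or, for position clusters, stayed near the reported number, and sizes moved within the ranges given here. The comparisons for assembly gaps and chromosome 11, their alternatives, and the alternatives without the distal chromosome 11 peaks were chosen after seeing the data. The number of position clusters, 104 as reported, moved with the minimum and with the distance that joins peaks: 478 with at least 20 input tags, 22 with at least 50, 268 with input at least 5 times the mean expected, 16 with a fold of at least 4, 63 with a gap of 100 kb, 149 with a gap of 1 kb, and 31 to 103 with 1 list left out, the lowest without DIFF2. With a fold of at least 4 the density of peaks in distal chromosome 11 reversed, to a mean difference of -0.16 per Mb in place of 15, which was due to DIFF2 alone. With 1 list left out, the differences ranged from -0.483 to -0.0608 points for the share of high-input peaks, 9.05 to 20.8 for soft-masked centres, 27.7 to 41.6 for overlap, 32.4 to 46.1 for repeated words, 49.7 to 70.8 for gaps, -0.12 to -0.10 for clonal fold, 0.741 to 1.07 for the input of distal chromosome 11 and 6.21 to 18.5 for its density. Over all alternatives the differences ranged from -0.773 to -0.0426, 2.65 to 20.8, 17.1 to 41.6, 8.18 to 46.1, 13.1 to 70.8, -0.41 to -0.0825 and 0.318 to 1.07, in the same order. The density, whose reversal is given above, is left out, and no other mean changed sign. Single lists could still differ in sign. With at least 50 input tags, 3 lists remained. The exact sign-flip p was then 0.75 for soft-masked centres, 0.5 for overlap and 0.5 for repeated words, against 0.25 where all lists share a sign. No paired analysis was possible because the UNDIFF cultures are numbered 6 and 8 and the DIFF cultures 1 and 2, so that the states share no number. DIFF1 and UNDIFF6, with 3 and 7 high-input peaks, limit what any comparison over lists can show, and no exact test here could reach a p of 0.05.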
